A study of Mus musculus with 24 samples.

Results

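Line B3 is one of 11 cell lines that were grown out of lung tumours of 8-month-old mice carrying 2 transgenes, c-myc and c-raf. Its 3 arrays are those whose titles name the line B3: an array with no replicate number and the arrays numbered 1 and 2. They were chosen by title alone, and they are 3 of 22 tumour arrays and 3 of 24 arrays in the series. The other 19 tumour arrays come from 10 lines, of which 4 have 3 arrays (A2C12, cRAF_cMYC, gammaA7 and gammaB8), 1 has 2 arrays (A2B1) and 5 have 1 unnumbered array (betaD5, betaD10, gammaA3, gammaD1 and gammaD12). All lines, B3 included, carry both transgenes and were passaged weekly in medium with fetal calf serum, for up to 50 passages. The remaining 2 arrays are alveolar epithelial type II cells of healthy mice without the transgenes, and they enter no test here. Whether repeat arrays of a line came from separate cultures is not stated, so the p-values reflect array-to-array spread that may be technical. The labels also do not say how an unnumbered array differs from a numbered one.

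c-Myc switches on genes for growth. Oncogenes of this kind can engage p53, the transcription factor that answers DNA damage and oncogene signals by switching on genes that halt the cell cycle or start cell death. Its targets include brakes on division such as Cdkn1a and its own inhibitor Mdm2, so the level of these genes is a common readout of p53 activity. Type II cells make lung surfactant and renew the alveolar lining.

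Signals are the deposited Affymetrix values, scaled to one average level per array, so each level is relative to the rest of its own array. Differences are given on the scale of log2(signal + 32), which compresses signals near or below 32. Median signals were 53.2 to 61.6 on the B3 arrays, 54.3 to 75.5 on the other tumour arrays and 93.8 to 107.7 on the control arrays. The actin 3'/5' signal ratio, a sign of RNA quality, was 1.14 to 1.15 in B3, 1.03 to 1.32 in the other tumour arrays and 1.47 to 1.64 in control. The number of arrays, and not a count of molecules, limits the precision.

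The B3 arrays did not behave as 3 like replicates. Likeness was measured as Pearson's r over the 7215 tested probe sets, each centred on the mean of the 11 line means, and it is a description across probe sets that share one scaling. B3 replicates 1 and 2 had r = 0.85, with 20 probe sets differing 2-fold or more. The unnumbered B3 array had r = 0.06 with replicate 1 and 0.14 with replicate 2, and 292 and 265 probe sets lay at least 2-fold apart. Its closest array was the unnumbered A2B1 array, with r = 0.41 and 102 probe sets 2-fold apart. Such a split was not limited to B3: in 4 of the 6 lines with both kinds of array, the array closest to the unnumbered one came from another line. The numbered A2B1 array stood apart from the other numbered arrays, with a mean r of -0.09 with them, and its median log2 level of cell cycle genes was 7.94 against 9.95 to 10.21 on the others. The 2 numbered arrays of cRAF_cMYC and the 2 of gammaA7 had r of only 0.14 and 0.15 with each other. In their deviations from their line means the 2 lines matched by number instead, with r = 0.69 between their arrays numbered 1 and 0.71 between those numbered 2. Every comparison below is therefore given for all 3 B3 arrays, for the numbered arrays alone and for the unnumbered array alone.

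**Figure D1:**
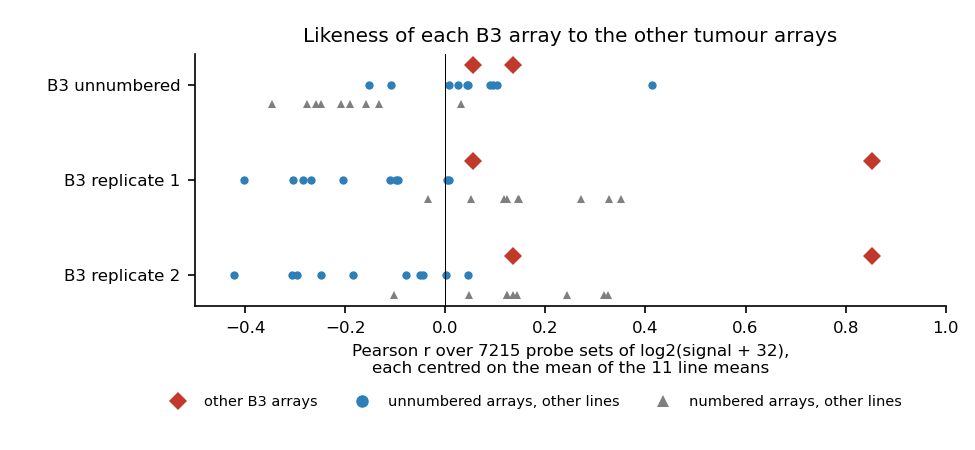
Pearson's r (x axis) of each B3 array (rows) with every other tumour array, over 7215 probe sets centred on the mean of the line means; red diamonds are the other B3 arrays, blue circles unnumbered and grey triangles numbered arrays of other lines. Replicates 1 and 2 lie at 0.85 with each other, while the unnumbered array lies at 0.06 and 0.14 with them and at 0.41 with the unnumbered A2B1 array.

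Type II cell markers were low in B3 beside the control arrays, as in the other lines. The summed signal of 10 measured type II markers was 282 to 340 on the B3 arrays, 253 to 789 on the other tumour arrays and 3628 to 33353 on the control arrays. The surfactant gene Sftpc read 28.0, 33.2 and 6.49 on the unnumbered, first and second B3 arrays, against 787 and 11196 on the control arrays. Type I cell markers, of which 5 were measured, were closer, with a summed signal of 2708 to 3085 in B3, 1925 to 4143 in the other tumour arrays and 3609 to 5083 in control. The epithelial adhesion gene Epcam read 4.23, 1.06 and 7.10, and the epithelial cadherin Cdh1 read 56.5, 77.6 and 68.1. The mesenchymal cadherin Cdh2 read 1504, 1201 and 1032, and the fibrillar collagen Col1a1 5420, 4594 and 4686. Over 17 measured fibroblast markers the median log2 level was 5.51 to 5.56 in B3. It was 5.72 to 6.73 on the other unnumbered arrays and 5.46 to 6.72 on the other numbered ones. With all 3 arrays none of the 8 epithelial, 13 mesenchymal transition and 11 fibroblast genes tested was called. Their median log2 differences from the other lines were -0.06, -0.11 and -0.23. The summed signal of 20 measured myeloid markers was 750 to 1322 in B3, 744 to 2255 in the other tumour arrays and 32791 to 52086 in control, and none of the 4 that were tested was called in any comparison of B3 with other lines. Myc, a transgene name, read 381, 407 and 437 in B3, within the 183 to 491 of the other line means (log2 difference 0.34, adjusted p = 0.561). The probe sets do not tell the transgene from the mouse gene, and Trp53 is not analysed here.

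With all 3 arrays, B3 differed from the other 10 lines in a small number of genes. The adhesion molecule Cadm1, the growth factor Btc and the efflux pump Abcg2 were higher in B3, and the lipid kinase Sphk1, the glycolipid enzyme B4galt6 and Rangrf were lower. Of 7215 probe sets, 10 passed (0.139%), 4 higher and 6 lower, at a Benjamini-Hochberg adjusted p under 0.05 in limma and at least 2-fold. Counting each gene once by its brightest probe set, 6 of 5496 genes passed (0.109%), 3 higher (0.0546%) and 3 lower (0.0546%). When a probe set had to exceed its array's median on at least 11 tumour arrays, not 2, 7 passed, 1 higher and 6 lower. The error of this comparison is the spread between arrays of one line. Of the B3 arrays 2 are numbered, while 5 of the other lines have only an unnumbered array. The kind of array and the line therefore cannot be told apart in full here.

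Cadm1 encodes an immunoglobulin-family adhesion protein of epithelial and neural cells. Its signals were 488, 224 and 252 on the unnumbered, first and second B3 arrays, and the other line means ran from 11.7 through a median of 25.9 to 379. B3 lay above 9 of the 10 other lines, with A2B1 the exception, by 2.22 on the log2 scale (SE 0.22, adjusted p = 1.1e-04). A dimmer Cadm1 probe set, with signals of 228, 160 and 181 in B3 against line means of 4.98 to 149, gave 2.09 (SE 0.15, adjusted p = 2.2e-06). On the control arrays the brighter probe set read 501 and 1308.

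Btc encodes betacellulin, a ligand of the epidermal growth factor receptor. Its signals were 36.4, 115 and 123 in B3, against line means of 2.97 to 51.6 with a median of 15.4. For Btc only 1 array of the other lines lay above its array's median. It was therefore tested only through the 2 numbered B3 arrays, and its call depends on that filter. The 2 numbered B3 arrays lay above all other lines and the unnumbered array lay among them, and the difference over the 3 arrays was 1.27 (SE 0.21, adjusted p = 0.0150). Without B3 replicate 1 or replicate 2 it was not called (adjusted p = 0.305 and 0.354), nor without line cRAF_cMYC (adjusted p = 0.069).

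Abcg2 encodes a membrane pump that exports drugs and urate. It gave the steadiest reading of the 6 genes, with signals of 597, 619 and 598 in B3. The other line means ran from 48.9 in A2C12 through a median of 265 to 580 in gammaB8. The numbered gammaB8 arrays read 642 and 700, above every B3 array, while the unnumbered gammaB8 array read 432. The difference of B3 from the other lines was 1.17 (SE 0.15, adjusted p = 9.7e-04). Without line A2C12 it fell just short of 2-fold, at 0.97.

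Sphk1 encodes sphingosine kinase, which makes the signalling lipid sphingosine phosphate. Its signals in B3 were 11.1, 7.21 and 10.8, all at the low end of the array, against line means of 9.25 to 178 with a median of 70.3. Only gammaD1 lay below B3, and the difference was -1.27 (SE 0.15, adjusted p = 5.1e-04).

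B4galt6 encodes a galactosyltransferase that makes lactosylceramide, the precursor of gangliosides. Its signals were 148, 52.5 and 56.9 in B3, against line means of 129 to 338 with a median of 274. All 10 other line means lay above that of B3, though the unnumbered array lay above the lowest of them, A2C12, and the difference was -1.40 (SE 0.22, adjusted p = 0.0106). It was not called without B3 replicate 1 or 2 (adjusted p = 0.214 and 0.222).

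Rangrf encodes a small protein that binds the nuclear transport regulator Ran. Its signals were 188, 99.1 and 106.7 in B3, against line means of 77.9 to 806 with a median of 450. A2B1 alone lay below B3, and the difference was -1.40 (SE 0.17, adjusted p = 6.7e-04).

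The other called probe sets are 1 for Thbd, the thrombin receptor thrombomodulin, 1 for Cyba, a subunit of NADPH oxidase, and 1 that matches several symbols and is not named. The called Thbd probe set read 2.34, 1.44 and 1.54 in B3 against line means of 3.35 to 133, a difference of -1.36 (SE 0.15, adjusted p = 2.8e-04). The brighter Thbd probe set read 1.05, 8.92 and 7.34 against 18.4 to 344 (-1.61, adjusted p = 0.0878). The B3 readings of both probe sets lay under the B3 array medians of 53.2 to 61.6. The called Cyba probe set read 275, 192 and 149 against 7.14 to 1226 (-1.06, SE 0.19, adjusted p = 0.0352), and the brighter one gave -0.87 (adjusted p = 0.0763). The unnamed probe set read 182 on the unnumbered B3 array and 1.56 and 2.54 on the numbered ones, against line means of 75.1 to 2048, a difference of -3.52 (SE 0.49, adjusted p = 0.00260).

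**Figure D2:**
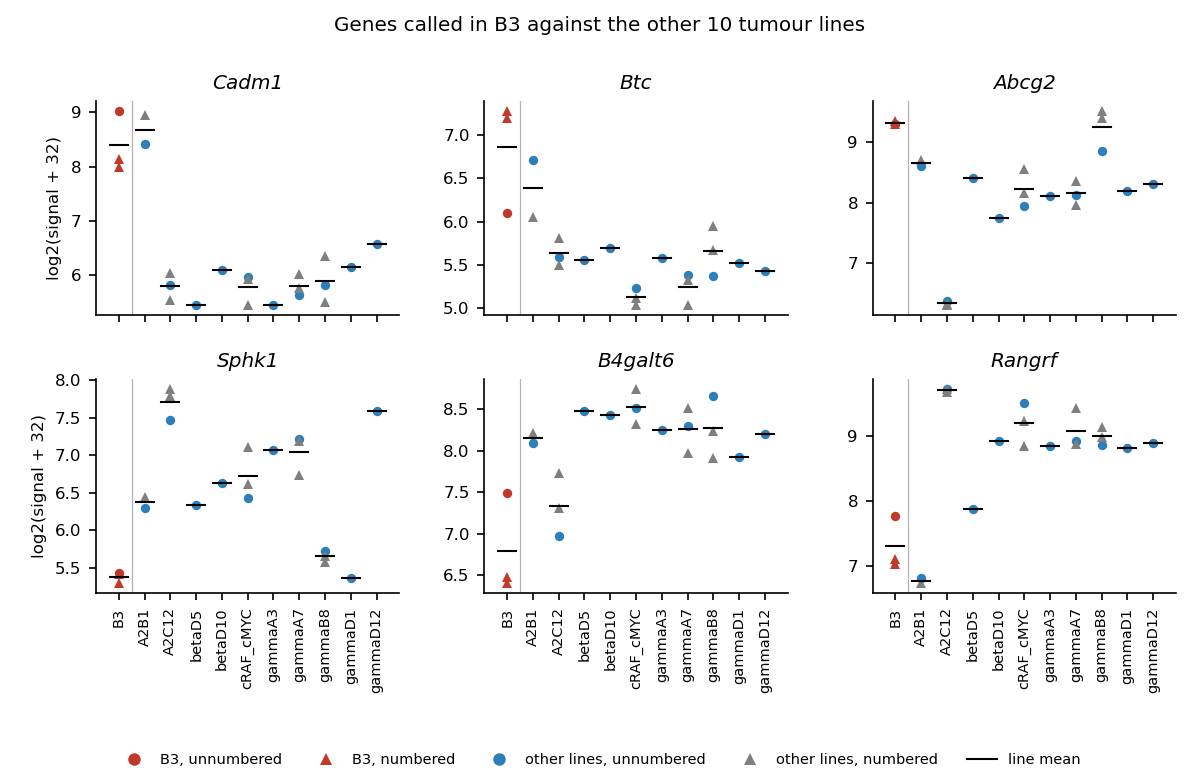
Log2(signal + 32) on each tumour array (y axis) by line (x axis, B3 at the left in red) for the 6 genes called with all 3 B3 arrays; circles are unnumbered and triangles numbered arrays, and the bar is the line mean. B3 tops the line means for Btc and Abcg2, A2B1 lies above B3 for Cadm1 and below it for Rangrf, gammaD1 lies level with B3 for Sphk1, and the unnumbered B3 array lies nearer the other lines than the numbered ones for Btc, B4galt6 and Rangrf.

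Some of the largest log2 differences did not pass. Crip1, a small LIM-domain protein, read 919, 1212 and 1184 in B3 against line means of 3.23 to 185 with a median of 68.8. The difference was 3.58 (SE 0.83, adjusted p = 0.121). Single arrays of other lines came close to it, with 883 on the second numbered cRAF_cMYC array, or lay within it, with 939 on that of gammaA7. Other large positive differences that did not pass were those of the matrix metalloproteases Mmp13 (1.56, adjusted p = 0.131) and Mmp3 (1.54, adjusted p = 0.123), the axon guidance gene Sema3e (1.4998, adjusted p = 0.133) and the lymphatic growth factor receptor Flt4 (1.37, adjusted p = 0.123). Large negative ones were those of the desmosomal plakophilin Pkp2 (-1.60, adjusted p = 0.112), the natriuretic peptide clearance receptor Npr3 (-1.43, adjusted p = 0.268) and the immediate early gene Fos (-1.39, adjusted p = 0.458).

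When each line was taken as a single sample, so that the error is the spread between lines, no probe set passed in limma (0 of 7215, 0%), and 165 had an unadjusted p under 0.05. In simulated arrays this comparison called 0% of 2-fold and 60% of 4-fold changes, so it could miss differences of the sizes given above. For Cadm1 the SE was 0.83 with lines as samples, against 0.22 with arrays as samples. All 3 B3 arrays lay above every other tumour array for 20 of 5496 genes (0.364%) and below for 16 (0.291%). Among those above was the mitotic kinesin Kif11, with signals of 914, 897 and 884 in B3 (0.56, adjusted p = 0.369). The mRNA cap-binding protein Ncbp2 read 605, 738 and 711 against line means of 323 to 461 (0.82, adjusted p = 0.0440, under 2-fold). The fatty acid enzyme Acsl5 read 1481, 1284 and 1313 against 620 to 1092 (0.61, adjusted p = 0.177).

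Within the numbered arrays, B3 was compared with the 9 numbered arrays of 5 other lines, and more genes passed. Several p53 target genes were lower in B3, and the growth factor Btc, its fellow list member Met and the collagen Col8a1 were among those higher. Of 7215 probe sets 88 passed (1.22%), 51 higher and 37 lower, which stand for 71 of 5496 genes (1.29%), 41 higher (0.746%) and 30 lower (0.546%). Without regard to size, both numbered B3 arrays lay above all 9 other numbered arrays for 351 genes (6.39%) and below them for 337 (6.13%). Centring arrays on their medians gave 79 higher and 24 lower and shifted the median of all probe sets to 0.08, against -0.02 as deposited. Of the 10 probe sets called with all arrays 9 were called here, from overlapping arrays. The error is again the spread between arrays of one line, and not between lines.

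The p53 target list, which has 12 tested members, had 5 called lower and none higher, where 0.546% of all genes were called lower. Their median log2 difference was -0.73, against -0.01 for all genes tested. The 5 are Cdkn1a, Ccng1, Zmat3, Phlda3 and Mdm2. For these 5, both numbered B3 arrays lay below all 19 other tumour arrays, which held for 2.22% of all genes, while 3.44% had both above.

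Cdkn1a encodes the inhibitor of cyclin-dependent kinases through which p53 halts the cell cycle. Its signals were 1430 on the unnumbered B3 array and 221 and 193 on the numbered ones. The 9 other numbered arrays ran from 295 through a median of 579 to 1029, and the 10 other unnumbered arrays from 483 through 967 to 1144. The numbered difference was -1.48 (SE 0.15, adjusted p = 0.00362). On this probe set the numbered B3 arrays lay below, and the unnumbered B3 array above, every other array of their own kind. On the control arrays this probe set read 632 and 198. A second Cdkn1a probe set gave -2.21 (adjusted p = 6.5e-04). On it the unnumbered B3 array read 728, within the 164 to 841 of the other unnumbered arrays.

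Ccng1 encodes cyclin G1, which acts on Mdm2 and so feeds back on p53. It read 1122 on the unnumbered B3 array and 180 and 222 on the numbered ones, against 496 to 1055 on the other numbered arrays, with a median of 693. The difference was -1.74 (SE 0.11, adjusted p = 0.00103). It is the 1 p53 target still called when either numbered B3 array was left out.

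Mdm2 encodes the ubiquitin ligase that marks p53 for degradation. It read 1684 on the unnumbered B3 array and 378 and 510 on the numbered ones, against 717 to 1151 on the other numbered arrays (-1.03, SE 0.15, adjusted p = 0.0103). Zmat3, an RNA-binding zinc finger protein, read 581, then 204 and 196, against 407 to 584 (-1.14, SE 0.10, adjusted p = 0.00249). Phlda3, which restrains the kinase Akt, read 1533, then 526 and 589, against 866 to 1452 (-1.06, SE 0.20, adjusted p = 0.0185). For all 3 genes the unnumbered B3 array was more than 2-fold brighter than either numbered one, and the numbered ones lay below all other arrays.

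Of the other 7 tested members, 5 had negative and 2 positive numbered differences, between -0.76 for Ddit4, an inhibitor of mTOR signalling, and 0.38 for the death receptor Fas. None was called, and the values of the rest were -0.70 for the antiproliferative gene Btg2, -0.42 for Ei24, -0.16 for Gadd45a, -0.03 for Perp (0.11 after quantile normalization and 0.07 after centring) and 0.10 for the kinase Plk2. Under the other scalings and offsets 2 to 5 members were called lower. Without line A2B1 it was 4 and the list's median was -0.45; without B3 replicate 1, and without replicate 2, it was 1.

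p53 binds DNA at a known 10-base half-site. Promoter sequence is shown for Cdkn1a, Mdm2 and Ccng1, called targets whose windows hold a match to it. RefSeq windows of 300 bases, from 250 before to 50 after the transcription start in GRCm38.p6, were listed for 10 of the 12 tested targets. A match to the p53 half-site, searched as a consensus whose reverse complement is itself, stood in the windows of 5 of them (Cdkn1a, Mdm2, Ccng1, Gadd45a and Ei24) and in those of 9.55% of all genes. The list was made of p53 targets, so this share is no result about B3. Phlda3, which was called, had no match in its window, whereas Gadd45a and Ei24 had one and were not called. The stretches below run 5' to 3' along the gene's strand, with half-sites in capitals. They lie at chr17:29090876-29090967 on the plus strand for Cdkn1a, chr10:117710905-117710974 on the minus strand for Mdm2 and chr11:40755432-40755501 on the minus strand for Ccng1.
Cdkn1a: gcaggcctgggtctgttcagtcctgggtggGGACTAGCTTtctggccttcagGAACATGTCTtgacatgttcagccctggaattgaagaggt
Mdm2: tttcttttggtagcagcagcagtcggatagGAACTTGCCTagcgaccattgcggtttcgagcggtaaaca
Ccng1: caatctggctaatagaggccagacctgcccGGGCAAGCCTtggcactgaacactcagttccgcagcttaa
Cdkn1a has 2 windows, and only that shown here holds a match. The Cdkn1a stretch holds 2 half-sites, starting 73 and 51 bases before the transcription start of that window. The Mdm2 and Ccng1 stretches hold 1 each, starting 186 and 185 bases before the start of their own window. A match is a description of these letters and not evidence of binding in these cells.

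**Figure D3:**
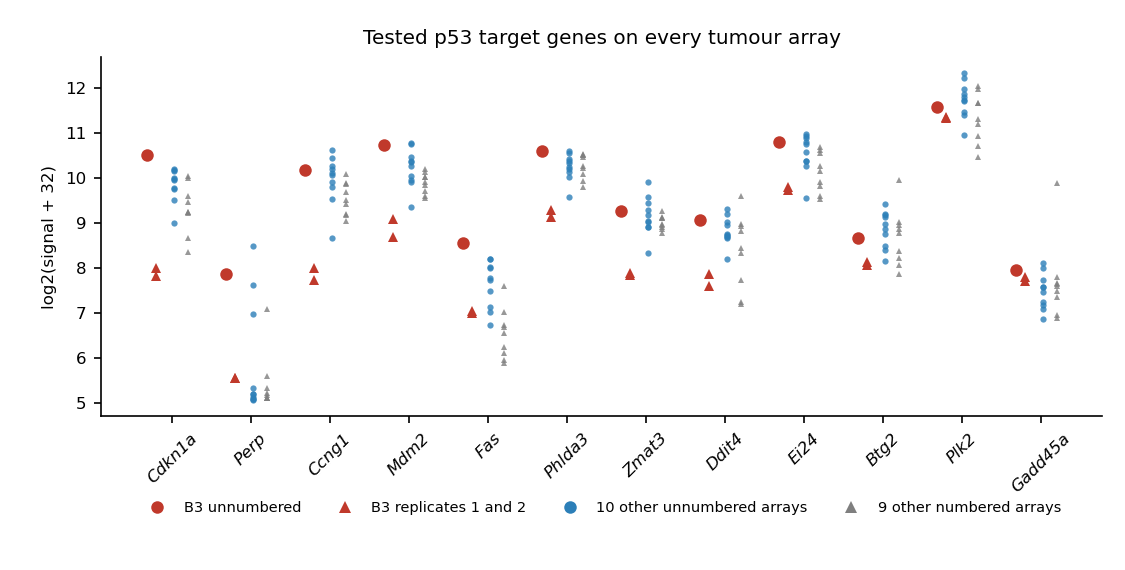
Log2(signal + 32) of the 12 tested p53 targets (y axis) on the unnumbered B3 array (red circle), B3 replicates 1 and 2 (red triangles), the 10 other unnumbered arrays (blue) and the 9 other numbered arrays (grey), ordered by the gap between the B3 arrays. Both numbered B3 arrays lie below all other arrays for Cdkn1a, Ccng1, Mdm2, Phlda3 and Zmat3, and the unnumbered B3 array lies within or above them.

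Growth factors and receptors had 3 of 27 tested members called higher and none lower, where 0.746% and 0.546% of all genes were, with a median of 0.11. Btc read 115 and 123 on the numbered B3 arrays and 0.721 to 34.6 on the others (1.68, SE 0.13, adjusted p = 0.00177). It was tested only because the numbered B3 arrays lay above their array medians. Met, the receptor of hepatocyte growth factor, read 327 and 298 against 104 to 188 (1.07, SE 0.12, adjusted p = 0.00519). Igfbp3, which binds insulin-like growth factors, read 81.4 and 125 against 4.26 to 68.5 (1.35, SE 0.32, adjusted p = 0.0335). For all 3 the numbered B3 arrays lay above every other numbered array, while the unnumbered B3 array read 36.4 for Btc, 139 for Met and 5.70 for Igfbp3.

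Among proteases and inhibitors, 2 of 20 were higher and 1 lower, where 0.746% and 0.546% of all genes were. The stromelysin Mmp3 read 862 and 812 on the numbered B3 arrays, against 54.7 to 730 (1.20, SE 0.08, adjusted p = 0.00103), and 649 on the unnumbered one. The collagenase Mmp13 read 773 and 817 against 29.9 to 1226 (1.40, SE 0.24, adjusted p = 0.0145), and 876 on the unnumbered B3 array. The metalloprotease Adam19 read 28.7 and 6.30 against 6.41 to 600 (-1.52, SE 0.35, adjusted p = 0.0321). Mmp3 lay above every other numbered array, whereas Mmp13 and Adam19 overlapped with them.

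Smooth muscle and contractile genes had 2 of 11 members higher, where 0.746% of all genes were, and none lower, with a median of 0.58. The list's median was only 0.08 with all arrays and 0.06 for the unnumbered B3 array against the other unnumbered arrays, and no member was called in either. Smooth muscle actin Acta2, also a mesenchymal transition marker, read 3807 and 3727 on the numbered B3 arrays against 1276 to 2894 (1.17, SE 0.12, adjusted p = 0.00394). Calponin Cnn1 read 211 and 184 against 15.9 to 216 (1.10, SE 0.17, adjusted p = 0.0106). The numbered B3 arrays lay above all other numbered arrays for Acta2 and overlapped with them for Cnn1, and the unnumbered B3 array read 4451 for Acta2 and 468 for Cnn1. The fibroblast markers had a median of -0.32 with none of 11 called.

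Some other lists had 1 member each called higher on the numbered B3 arrays, where 0.746% of all genes were. In the list of chemokines and cytokines it was the adhesion molecule Vcam1, 1 of 17. It read 2636 and 2457 against 287 to 1757 (1.58, adjusted p = 0.00535). Among epithelial genes it was the tight junction receptor Cxadr, 1 of 8, with 451 and 496 against 63.5 to 211 (1.59, adjusted p = 0.0168). Among proteoglycans and matricellular proteins it was Fbln1, 1 of 23 (1.14, adjusted p = 0.0148). The medians of these lists were -0.02, -0.07 and -0.25. None of 15 collagen and cross-linking genes, 13 basement membrane genes and 9 integrins was called, with medians of -0.16, -0.12 and -0.13. The receptor Notch1, 1 of 16 Wnt and Notch genes (median -0.20), was lower, where 0.546% of all genes were. It read 9.61 and 8.47 against 7.65 to 167 (-1.07, adjusted p = 0.0247). The mitotic genes Kif11 and Mad2l1, 2 of 28 cell cycle genes, were just past 2-fold (1.00 each, adjusted p = 0.00731 and 0.00970), and without line A2B1 they were not called (0.59 and 0.66). None of the 25 tested Myc targets, 16 members of the MAPK pathway list or 9 of the Myc network was called, with medians of 0.28, -0.31 and 0.08.

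Among the highest numbered differences were those of the short-chain collagen Col8a1 and the lectin Lgals2. Col8a1 read 648 and 611 on the numbered B3 arrays, against 7.94 to 375 on the others and 55.7 on the unnumbered B3 array (2.04, SE 0.20, adjusted p = 0.00316). Lgals2 read 270 and 252 against 16.8 to 85.0, and 28.6 on the unnumbered B3 array (1.78, SE 0.26, adjusted p = 0.0103). Sema3e read 1328 and 1256 against 122 to 871 (1.78, adjusted p = 0.0209) and was not called without A2B1 (adjusted p = 0.0519).

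Among the lowest were Renbp, an epimerase of amino sugars, with 45.4 and 30.6 on the numbered B3 arrays against 127 to 1005 (-2.18, SE 0.28, adjusted p = 0.00731), and Thbd, with 8.92 and 7.34 against 19.5 to 547 (-2.10, SE 0.46, adjusted p = 0.0267). Enzymes that build gangliosides, picked after their values were seen, were called in both directions. B4galt6 (-1.68, adjusted p = 0.00519) and B4galnt1, which extends gangliosides (-1.78, adjusted p = 0.0103), were lower, and St8sia1, which adds sialic acid to them, was higher (1.04, adjusted p = 0.0254). B4galnt1 read 24.002 and 5.36 on the numbered B3 arrays against 61.1 to 288, and St8sia1 read 93.0 and 82.3 against 3.18 to 58.6. The unnumbered B3 array read 82.0 for B4galnt1 and 29.2 for St8sia1, both within the range of the other lines.

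Without line A2B1, whose single numbered array stood apart, 80 probe sets were called, 57 of them shared with the 88. Leaving out B3 replicate 1 left 4 calls and leaving out replicate 2 left 5, since 1 B3 array then remains.

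The unnumbered B3 array, set against the 10 other unnumbered arrays, gave no call in limma (0 of 7215, 0%), and 136 probe sets had an unadjusted p under 0.05. In simulated arrays this comparison called 0% of 2-fold and 59% of 4-fold changes, so the lack of calls does not show a lack of differences. On the real arrays there was 1 call with an offset of 1 in place of 32. Of the 88 probe sets called on the numbered arrays, 66 had the same sign here and 13 of these were at least 2-fold apart. Among them were Cadm1, at 2.88 (adjusted p = 0.999), and Mmp13 (1.97), Mmp3 (1.44) and Abcg2 (1.22). The p53 targets did not: 10 of the 12 had positive values, with a median of 0.31. The unnumbered B3 array lay above all 10 others for 3 of the 12 (Cdkn1a, Fas and Phlda3), which held for 5.13% of all genes, and below them for none of the 12, against 6.37% of all genes. The difference was 0.66 for Cdkn1a and 0.91 for Fas (adjusted p = 0.999 for each). On the second Cdkn1a probe set it was 0.40, and the unnumbered B3 array lay within the others.

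Within B3, the unnumbered array was compared with the mean of the numbered ones. The unnumbered array was higher for 6 of 12 p53 targets and for Igfbp2, Cd24a and Ptgs2, and lower for Col8a1, Vcam1, Mt1, Mt2, Has1 and Has2. In all, 83 probe sets passed (1.15%), 49 higher and 34 lower, and they stand for 69 genes (1.26%), 41 higher (0.746%) and 28 lower (0.509%). After quantile normalization 42 were higher and 17 lower, and after centring on array medians 63 were higher and 20 lower. The error comes from the numbered pairs of 5 lines, and the single unnumbered array is assumed to vary like them. Leaving out B3 replicate 1 left 6 calls, and leaving out replicate 2 left 5.

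Of the 12 p53 targets, 6 were called higher on the unnumbered array, where 0.746% of all genes were. None was lower, and all 12 values were positive with a median of 1.41, against -0.05 for all genes tested. Cdkn1a differed by 2.61 (SE 0.23, adjusted p = 0.00392), Ccng1 by 2.31 (SE 0.18, adjusted p = 0.00392), Mdm2 by 1.86 (SE 0.23, adjusted p = 0.0147) and Zmat3 by 1.40 (SE 0.15, adjusted p = 0.00777). Perp, a membrane protein of desmosomes and of p53-driven cell death, read 201 on the unnumbered array and 14.9 and 14.8 on the numbered ones (2.32, SE 0.20, adjusted p = 0.00392). Ei24, a protein of the endoplasmic reticulum, read 1765, then 820 and 860 (1.04, SE 0.19, adjusted p = 0.0463). Not called were Fas (1.53), Phlda3 (1.41), Ddit4 (1.34), Btg2 (0.56), Plk2 (0.23) and Gadd45a (0.18).

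Large values also lay outside the p53 list. Igfbp2, a carrier of insulin-like growth factors, read 514 on the unnumbered B3 array and 22.4 and 41.8 on the numbered ones (3.11, SE 0.26, adjusted p = 0.00392). The surface glycoprotein Cd24a read 3698, then 428 and 512 (2.90, SE 0.34, adjusted p = 0.0121), and the prostaglandin synthase Ptgs2 read 1213, then 273 and 259 (2.06, SE 0.21, adjusted p = 0.00763). In the other direction, Col8a1 read 55.7, then 648 and 611 (-2.91, SE 0.30, adjusted p = 0.00763). Lgals2 differed by -2.27 (SE 0.40, adjusted p = 0.0446), Vcam1 by -2.13 (SE 0.29, adjusted p = 0.0197) and the homeobox gene Rhox5 by -2.03 (SE 0.34, adjusted p = 0.0406). Has1 and Has2, which make hyaluronan, read 8.62 and 61.8 on the unnumbered array, against 131 and 125 for Has1 and 279 and 265 for Has2 on the numbered ones (-1.98 and -1.70, adjusted p = 0.00604 and 0.00777). The zinc-binding metallothioneins Mt1 and Mt2, 2 of 6 tested in their list, were lower, where 0.509% of all genes were (-1.87 and -1.21, adjusted p = 0.0157 and 0.0171). Of the 4 tested myeloid markers, Cd14, a receptor for bacterial lipopolysaccharide, was higher, where 0.746% of all genes were. Cd14 read 989 on the unnumbered array against 408 and 441 (1.16, SE 0.19, adjusted p = 0.0352), and its part in the other differences was not tested.

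Other lines also have both kinds of array, and the B3 difference was set against the mean of the same difference in these 5 lines, a comparison added after the data were seen. With each line's difference as 1 sample, so that the error is its spread between lines, no probe set passed in limma (0 of 7215), and 168 had an unadjusted p under 0.05. With the error of numbered pairs, which leaves that spread out, 23 probe sets passed (0.319%), 16 higher and 7 lower, and they stand for 21 genes (0.382%), 15 higher (0.273%) and 6 lower (0.109%). After centring on array medians 10 were higher and 7 lower. Under that error p53 targets made up 5 of the 15 higher genes: Perp at 2.30 (adjusted p = 0.0145), Cdkn1a at 2.26 (0.0247), Ccng1 at 2.09 (0.0145), Mdm2 at 1.76 (0.0467) and Zmat3 at 1.40 (0.0247). With lines as samples the adjusted p was 0.279 for Cdkn1a (0.0783 for its second probe set, the smallest of all), 0.488 for Perp and 0.99976 for the other 3. The B3 difference lay above those of all 5 other lines for 8 of the 12 p53 targets, among them these 5, and for 14.6% of all genes. For Cdkn1a it was 2.61 in B3, against 0.18 to 0.58 in the other lines, and for Perp 2.32 against -0.28 to 0.52. The list's median was 1.24, against 0.01 for all genes tested. Igfbp2 (1.81, adjusted p = 0.0644), Cd24a (1.39, adjusted p = 0.172), Ptgs2 (0.40, adjusted p = 0.495) and Mt1 (-0.37, adjusted p = 0.588) did not pass.

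With the error of numbered pairs the other called genes included Msln, the mesothelial surface protein mesothelin, which read 651 on the unnumbered B3 array and 410 and 380 on the numbered ones and differed by 2.65 from the other lines (SE 0.19, adjusted p = 0.00517). Its difference was 0.68 in B3, which was not called, and -4.70 to -0.66 in the other lines. The kinases Ptk2b (1.37) and Dgka (1.69), the phosphatase Ptp4a3 (1.95), the lysosomal protease Ctsf (1.78) and the endoplasmic reticulum protein Wfs1 (1.23) were higher as well. Col8a1 (-2.31, adjusted p = 0.0467), Has2 (-1.86, adjusted p = 0.0247), Has1 (-1.76, adjusted p = 0.0247) and the RNA-binding protein Rbmx (-1.59, adjusted p = 0.0467) were lower. Without line A2C12 none of the 12 p53 targets was called, with a median of 1.09, and without B3 replicate 1 or 2 none was either.

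**Figure D4:**
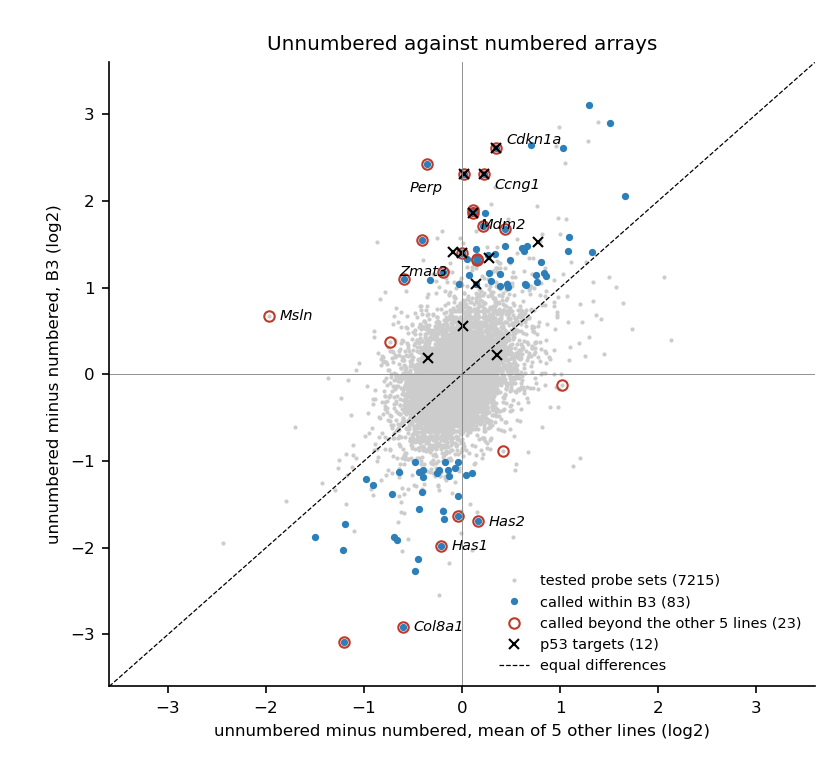
Unnumbered minus numbered difference in log2(signal + 32) for B3 (y axis) against the mean of the same difference in 5 other lines (x axis), over 7215 probe sets (grey). Blue points are the 83 called within B3, open red circles the 23 called beyond the other lines with the error of numbered pairs (none with lines as samples), crosses the 12 p53 targets, and the dashed line marks equal differences; Cdkn1a, Perp, Ccng1, Mdm2 and Zmat3 lie high on the B3 axis and near 0 on the other.

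Because the unnumbered array differs so, the comparison of B3 with all 10 other lines was repeated without it. Then 52 probe sets passed (0.721%), 25 higher and 27 lower, and these held all 10 called with it. The 5 p53 targets were among the 22 genes called lower (0.4%): Ccng1 at -2.02 (adjusted p = 4.2e-04), Cdkn1a at -1.84 (adjusted p = 2.8e-04), Mdm2 at -1.32 (adjusted p = 0.00196), Zmat3 at -1.30 (adjusted p = 0.00438) and Phlda3 at -1.08 (adjusted p = 0.0229). With the unnumbered array they ranged from -1.25 for Ccng1 to -0.61 for Phlda3, and none passed. Cadm1 (1.90), Abcg2 (1.18), Btc (1.65), Sphk1 (-1.30), B4galt6 (-1.75) and Rangrf (-1.64) passed with and without it. In this comparison numbered B3 arrays meet unnumbered arrays of the other lines, so the kind of array and the line cannot be told apart in full.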

How the data were processed

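RNA of 22 tumour line arrays and 2 control arrays was hybridised to an Affymetrix mouse array with 12488 probe sets. The deposited values are linear intensity signals which GCOS produced (its version is not stated), per the submitters' processing notes. A mean without the outer 2% of probe sets lay between 250.1 and 250.2 on every array. The sources used here do not give detection calls or background steps.

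After 66 control probe sets were removed, of 12422 probe sets, 10833 had 1 gene symbol, 396 had several and 1193 had none. Tests ran in limma 3.58.1 (R 4.3.3) on log2(signal + 32), over probe sets above their array's median on at least 2 of the 22 tumour arrays. The B3 arrays count towards this filter, so a probe set high only in B3 could enter. A gene stands for its brightest tested probe set. Line means were weighted equally, and residual degrees of freedom were 11 with all arrays, 9 with lines as samples and for the unnumbered arrays, and 5 for the numbered arrays and the contrasts within B3. Scripts were tested on simulated data.

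The line, the 40 gene lists and the tests were chosen with earlier results of these data known. The rule named the 10 largest differences each way with all arrays, up to 2 called members or else the largest difference in each list, the 5 largest each way within B3, and Myc. One item is not reported here. Other genes were named after their values were seen. Alternatives covered scaling, offset, filter, variance prior, fold threshold, the replicate number as a block and left-out arrays and lines.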

Additional observations from a re-analysis of the deposited data

Results flagged for a closer look

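In B3 the unnumbered minus numbered difference departed from the mean of the same difference in the 5 other lines with both kinds of array for 23 probe sets, by a limma test of that difference whose error is the spread of numbered pairs. With each line's difference as 1 sample none passed, and 0 to 2 did with a B3 replicate left out. Without line A2C12 none of the 12 tested p53 targets was called. The value was 2.26 for Cdkn1a, 2.30 for Perp, 2.09 for Ccng1, 1.76 for Mdm2 and 1.40 for Zmat3, all p53 targets. It was -2.31 for Col8a1 and -1.76 for Has1. Perp read no more than 15.8 on the arrays of A2C12, cRAF_cMYC, gammaA7 and gammaB8, where a gap could hardly show on this scale.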

How the results depend on the processing

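Calls by all arrays numbered 10, and 4 with an offset of 100, 88 from numbered and 0 from unnumbered arrays only, 9 with a replicate block, and 6 to 52 with an array or line left out (6 without B3 replicate 1 or 2, 52 without the unnumbered one). With lines as samples 0 to 2 were called with a line left out, 2 of them without A2B1. For numbered arrays (88) the count was 161 with an offset of 1, 33 with 100, 944 with no fold threshold, 197 without the lines cRAF_cMYC and gammaA7, 97 with a replicate block, and 4 to 108 with an array left out. The unnumbered arrays gave 1 call with an offset of 1. Within B3 (83) it was 52 with no filter, 129 with no fold threshold, 246 without the second numbered arrays of cRAF_cMYC and gammaA7, 246 without those lines, and 5 to 6 with a B3 replicate left out. Beyond the other lines (23) it was 15 with an offset of 1, 13 with no filter, 14 with the filter over 24 arrays, 35 with a trended robust prior, 170 and 226 without those arrays and lines, 0 with each line's difference as 1 sample, and 0 to 2 with a B3 replicate left out. The cause was not tested. Leaving out cRAF_cMYC and gammaA7 or their second arrays, leaving out A2B1, A2C12 or gammaB8 among the numbered arrays, the numbered arrays' replicate block, and all settings beyond the other lines were chosen after seeing the data. The unnumbered arrays of different lines deviated together, with a correlation over 0.1 in 10 of 10 pairs (0.18 to 0.55), but 6 of 10 pairs of arrays numbered 1 and 8 of 10 of those numbered 2 did, so the numbers were not taken as pairs.

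The sign turned in these genes, each of them uncalled in the comparison and setting shown, though several were called in others. Cd4 with all arrays was -0.016 with an offset of 100, -0.12 with the replicate block, -0.16 from numbered and -0.052 from unnumbered arrays, and -0.094 to 0.12 with an array or line left out. From numbered arrays only, Mt1 was -0.50, Igfbp2 -0.26 and Perp -0.035. From unnumbered arrays only, Hopx was -0.10, Rsph1 0.017, Id2 0.26, Prrx1 -0.14, Mylk -0.014, Eng 0.14, Cd14 0.16, Tfrc -0.24, Mxd4 0.25, Ccng1 0.21, Cdkn1a 0.66, Tap1 0.62, Mt1 -0.058, Ddit4 0.25, Cd24a 0.028, Col8a1 -0.52, Lgals2 -0.028, Rhox5 -0.087 and Has1 -0.51. Without the unnumbered B3 array, Igfbp2 was -0.75 and Perp -0.36 (highest 0.91 and 0.80 with another array or line left out). On the numbered arrays, Perp was 0.11 with quantile normalization, 0.070 centred, 0.76 with an offset of 1, 0.025 without the second arrays of cRAF_cMYC and gammaA7, 0.34 without A2B1 and -0.083 to 0.34 with an array left out. Gadd45a there was 0.34 without A2B1 and -0.20 to 0.34 with an array left out, and Plk2 was -0.0025 without A2C12, -0.093 without A2B1 and -0.093 to 0.15 with an array left out.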
